A study of Mus musculus with 6 samples.

Results

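The G1 cyclins, their kinases and their inhibitors were compared between neuron cultures from the hippocampus of WT (wild type) mice and of *Fmr1* KO (knockout) mice. The group holds 10 genes, chosen by symbol, out of 47086 loci in the deposited table. Its members are the D type cyclins Ccnd1, Ccnd2 and Ccnd3, the E type cyclins Ccne1 and Ccne2, the kinases Cdk2, Cdk4 and Cdk6, and the inhibitors Cdkn1a (p21) and Cdkn1b (p27). Cdkn1a has a further locus on a scaffold outside the chromosomes, and the chromosomal locus was used, since it has the higher mean. Total RNA was sequenced from cultures at 14 days in vitro, with 3 libraries per genotype, and neither genotype was treated. Both genotypes carry the C57BL/6 strain label. The study's methods describe its animals as male KO mice and WT littermates, and its cultures as made from newborn pups. The knockout allele, and which litter or culture each library came from, were not found in them. The p-values therefore measure the spread between these libraries, which may be partly technical.

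In dividing cells, D type cyclins are made in response to growth signals and activate Cdk4 and Cdk6. These kinases phosphorylate the retinoblastoma protein Rb1, which releases E2F factors and lets the cell make cyclin E and the genes of DNA replication. Cyclin E with Cdk2 completes the step into S phase, and p21 and p27 bind and restrain the cyclin and kinase pairs. Neurons have left the cell cycle, whereas glia and progenitors can still divide in such cultures. Values are given as FPKM, a fragment count scaled to transcript length and library size, so that levels of different genes can be compared. Sequencing depth is unknown from FPKM, so no counting interval is given. The FPKM of all loci summed to 1803679 to 2061226 in the WT libraries and 2040000 to 2303083 in the KO libraries, with 73.7% to 80.6% of each sum at Bc1, a short noncoding RNA.

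Ccnd2 was higher in *Fmr1* KO by 27.8%, and it was the only member to pass the test over all loci. Ccnd1, Cdk6, Cdkn1a and Cdkn1b also had higher FPKM in all KO libraries than in any WT library, but they did not pass the test or, for Cdk6, lay under the level needed to be tested. Of all tested loci, 10.8% were separate in this direction. Ccnd3 and Cdk4 lay close to equal in the 2 genotypes. The E cyclins had the lower mean in KO, without passing the test.

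The promoter table of RefSeq (GRCm38.p6) matched 7 of the 10 members by symbol. Ccnd1, Ccnd2 and Ccne2 are not among them. The 250 bases before a start site of Cdkn1a and of Cdk2 are shown, as the matched members that hold a p53 or an E2F motif, 2 factors whose known targets are described further on. In Cdkn1a the capitals mark a p53 element, that is, 2 abutting p53 decamers with at most 1 mismatch. In Cdk2 they mark an E2F word on the reverse strand.
Cdkn1a, chr17:29090729-29090978, plus strand: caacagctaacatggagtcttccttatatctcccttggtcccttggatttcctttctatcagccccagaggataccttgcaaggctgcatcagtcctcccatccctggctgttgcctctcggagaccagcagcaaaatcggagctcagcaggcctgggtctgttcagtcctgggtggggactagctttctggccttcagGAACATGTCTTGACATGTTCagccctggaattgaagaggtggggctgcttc
Cdk2, chr10:128705052-128705301, minus strand: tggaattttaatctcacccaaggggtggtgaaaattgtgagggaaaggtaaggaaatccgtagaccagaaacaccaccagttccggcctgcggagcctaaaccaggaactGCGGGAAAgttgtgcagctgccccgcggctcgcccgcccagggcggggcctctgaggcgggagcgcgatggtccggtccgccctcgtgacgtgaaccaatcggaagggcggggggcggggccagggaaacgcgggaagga

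The p53 element of Cdkn1a begins 51 bases before the more upstream of its 2 start sites in the table and has 1 mismatch. Of the 32851 promoter windows of 250 bases, 0.076% hold such an element. The E2F words searched on both strands were TTTCGCGC, TTTGGCGC, TTTCCCGC and TTTGCCGC, and 1.86% of the windows hold at least 1 of them. Cdk2 was the only matched member with such a word, which begins 140 bases before its start. The E box CACGTG occurs 4 times before the start of Cdk4 and 1 time before that of Cdk6, and 6.02% of all windows hold it. A match in these letters is a description and not evidence of binding.

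The members differed widely in level. In the WT libraries the mean FPKM was 72.4 for Ccnd2, 62.8 for Cdk4, 51.1 for Ccnd1, 28.9 for Cdkn1b and 17.1 for Ccnd3. It was 9.34 for Cdkn1a, 6.23 for Ccne1, 3.58 for Cdk2, 2.27 for Ccne2 and 0.498 for Cdk6. The libraries of neighbours in this order did not overlap in WT. In *Fmr1* KO the order of the means was the same, and Ccne1 and Cdk2 overlapped. Ccnd2 lay above 94.5% of the tested loci in mean FPKM and Ccne2 above 12.3%.

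**Figure D1:**
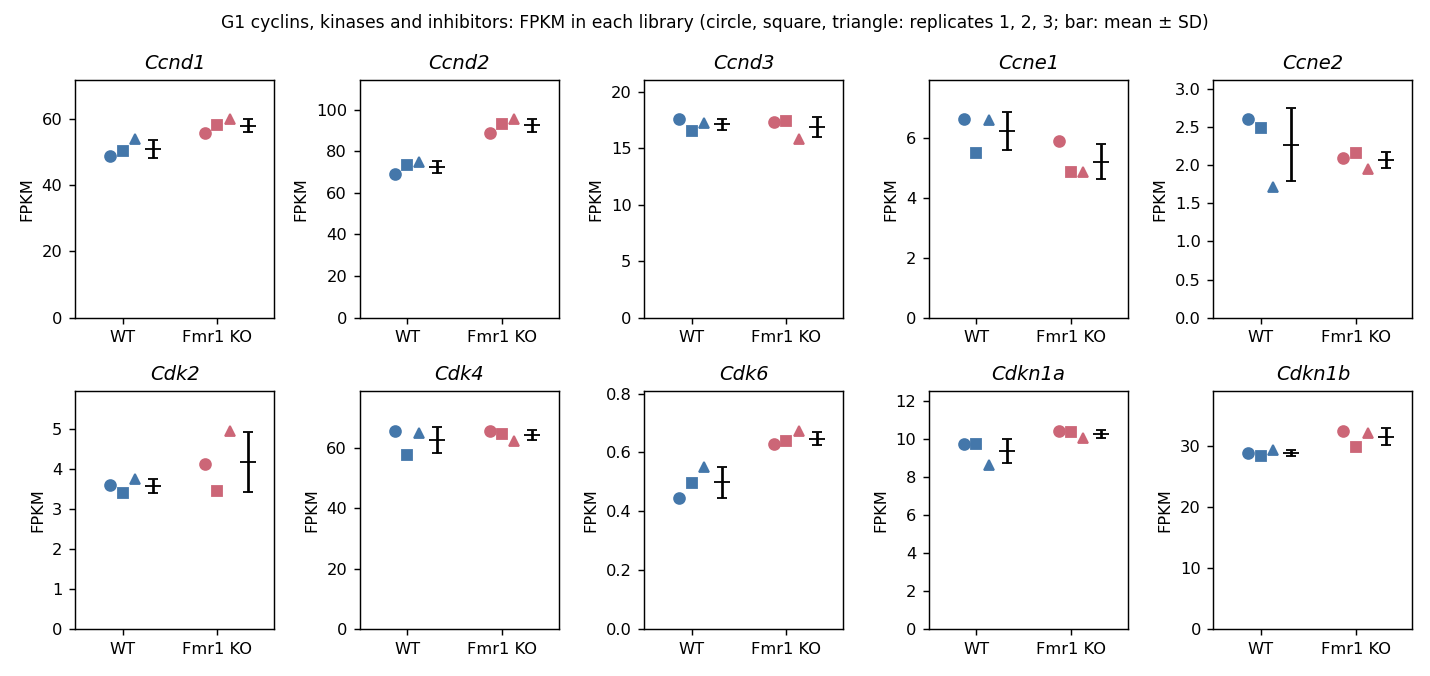
FPKM of each member in the 3 WT (blue) and 3 *Fmr1* KO (red) libraries, with symbols for the replicate numbers and the mean ± SD beside each group, on axes that start at 0. The KO libraries lie above the WT libraries in Ccnd1, Ccnd2, Cdk6, Cdkn1a and Cdkn1b, and the groups overlap in the other 5 genes.

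The comparison of the genotypes asks which transcripts differ when FMRP, the RNA-binding protein encoded by *Fmr1*, is lost. It was made with limma on log2(FPKM + 0.1) for the 13195 loci with a mean of at least 1 FPKM in either genotype. A locus was called where p, after Benjamini-Hochberg adjustment over all of them, was below 0.05. For weakly expressed genes a difference on this scale is smaller than the true one. *Fmr1* itself had an FPKM of 19.0, 19.5 and 19.7 in WT and 23.1, 21.8 and 18.5 in KO. The deposited value for the whole gene thus gave no sign of the knockout, and the labels, on which every direction here rests, could not be checked by it. Of the 10 members, 9 were tested, all of them above 1 FPKM in both genotypes, and 1 was called, against 0.265% of all tested loci. This 1 was higher in KO and none was lower, against 0.0909% and 0.174% of all tested loci. WT and KO libraries were fully separate in 4 of the 9, against 21.1% of all tested loci. In these 4 the KO libraries were all higher, against 10.8%, and in no member were they all lower, against 10.3%. At an unadjusted p below 0.05, 3 members were higher and 1 was lower, against 6.99% and 7.77% of all tested loci. The median log2 difference (KO minus WT) was 0.12 over the 9 tested members and 0.005 over all tested loci.

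The D type cyclins did not move alike. Ccnd2 (XLOC_015548, chromosome 6, 127125162 to 127152188 in RefSeq on GRCm38.p6) is known as the D cyclin of neural progenitors and of adult hippocampal neurogenesis. Its FPKM was 69.1, 73.2 and 74.7 in WT and 88.9, 93.1 and 95.3 in KO. The lowest KO library lay well above the highest WT library. The log2 difference was 0.35 (95% interval 0.24 to 0.47, standard error 0.05), with an adjusted p of 0.0359 in limma, and Ccnd2 ranked 26 of 13195 by p. The exact permutation p of its FPKM was 0.1 (two-sided), the smallest that 3 libraries against 3 allow. The call needed all 6 libraries. With any 1 of them left out, the log2 difference stayed between 0.32 and 0.38, but the adjusted p was 0.0537 to 0.177. In bulk RNA, more cells that express Ccnd2 and more Ccnd2 RNA per cell cannot be told apart.

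Ccnd1 (XLOC_019519, chromosome 7, 144929931 to 144939831) is the D cyclin most directly induced by growth factors. It had 48.8, 50.5 and 54.0 FPKM in WT and 55.9, 58.4 and 60.0 in KO. The groups did not overlap, and the gap between them was smaller than the range within either genotype. The log2 difference was 0.19 (95% interval 0.06 to 0.31), with an adjusted p of 0.185 in limma, so it did not pass. Ccnd3 (XLOC_038112, chromosome 17, 47505051 to 47599689), the D cyclin prominent in blood cells, had 17.6, 16.6 and 17.2 FPKM in WT and 17.4, 17.4 and 15.8 in KO. The genotypes overlapped. The log2 difference of Ccnd3 was -0.02 (95% interval -0.15 to 0.11, limma adjusted p = 0.916), and it was 0.02 without *Fmr1* KO replicate 3.

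Within a library, a ratio of D cyclins does not depend on the scaling of that library. The ratio of Ccnd2 to Ccnd1 was 1.42, 1.45 and 1.38 in WT and 1.59, 1.59 and 1.59 in KO. It was therefore higher in each KO library, with very little spread among them. Of the summed FPKM of the 3 D cyclins, Ccnd2 made up 51.5 ± 0.619% in WT and 55.2 ± 0.452% in KO (SD, n = 3). Ccnd1 made up 36.3 ± 0.573% and 34.7 ± 0.305% (SD, n = 3), so its share was the lower in KO although its FPKM was the higher. Ccnd3 made up 12.2 ± 0.674% and 10.1 ± 0.751% (SD, n = 3). In each of these shares the WT libraries were separate from the KO libraries. The shares are parts of the same sum, so these are not 3 separate results. That of Ccnd3 was lower in KO although its FPKM overlapped. The summed FPKM was 135 to 146 in WT and 162 to 171 in KO. These proportions were not tested.

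**Figure D2:**
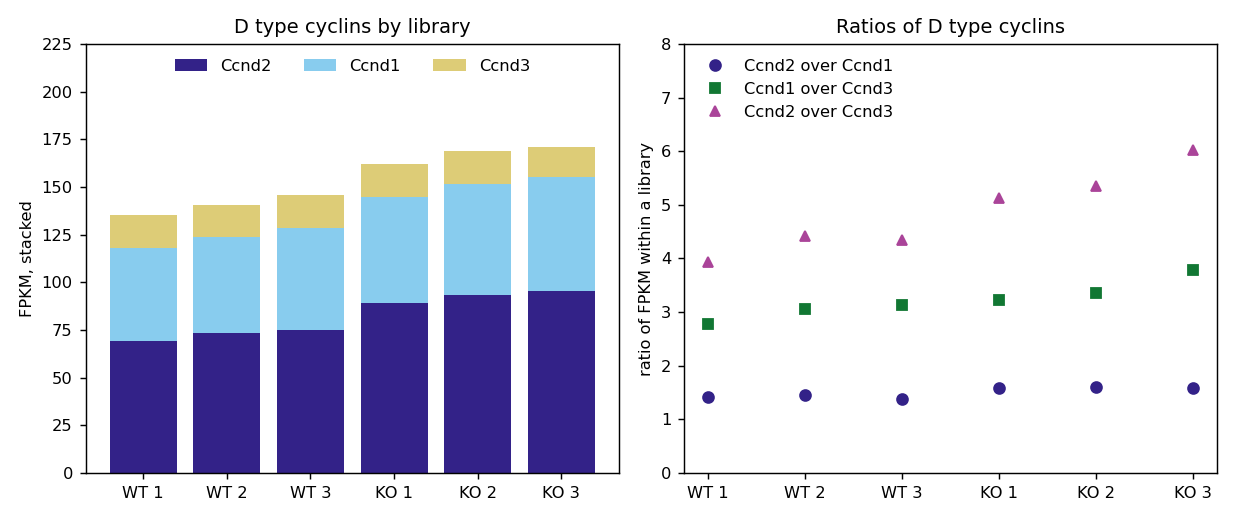
Left, FPKM of Ccnd2, Ccnd1 and Ccnd3 stacked for each library; right, ratios of their FPKM within each library, without units. The stacks reach 135 to 146 in WT and 162 to 171 in *Fmr1* KO, and all 3 ratios are higher in every KO library than in any WT library.

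The E type cyclins, which act with Cdk2 late in G1 and are themselves E2F targets, had lower means in KO. Ccne1 (XLOC_018286, chromosome 7, 38097984 to 38107490) had 6.62, 5.48 and 6.58 FPKM in WT and 5.88, 4.85 and 4.87 in KO. WT replicate 2 lay below *Fmr1* KO replicate 1, so the groups overlapped. The log2 difference of Ccne1 was -0.26 (95% interval -0.50 to -0.01, limma unadjusted p = 0.0415, adjusted p = 0.315). It was the only member lower in KO at an unadjusted p below 0.05. Ccne2 (XLOC_008352, chromosome 4, 11190433 to 11204779) had 2.60, 2.49 and 1.72 FPKM in WT and 2.09, 2.16 and 1.96 in KO. All KO values fell inside the WT range, and the log2 difference was -0.11 (95% interval -0.48 to 0.27, limma adjusted p = 0.816). The size of the Ccne2 difference depended on single libraries, from -0.0015 without WT replicate 1, -0.03 without WT replicate 2 and -0.07 without *Fmr1* KO replicate 3 to -0.29 without WT replicate 3.

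Among the kinases, Cdk4 made up 93.9 ± 0.264% of the summed FPKM of Cdk2, Cdk4 and Cdk6 in WT and 93.0 ± 1.19% in KO (SD, n = 3). Cdk4 (XLOC_024895, chromosome 10, 127063535 to 127067288), a partner of the D cyclins, had 65.6, 57.8 and 65.0 FPKM in WT and 65.7, 64.6 and 62.4 in KO. The genotypes overlapped. The log2 difference was 0.04 (95% interval -0.10 to 0.17, limma adjusted p = 0.835), and it was -0.02 without WT replicate 2. The interval leaves out a difference as large as that of Ccnd2. The ratio of Ccnd2 to Cdk4 within a library was 1.05, 1.27 and 1.15 in WT and 1.35, 1.44 and 1.53 in KO.

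Cdk6 (XLOC_010881, chromosome 5, 3341004 to 3531008), the other partner of the D cyclins, was the lowest member. Its FPKM was 0.445, 0.496 and 0.552 in WT and 0.628, 0.640 and 0.674 in KO. The groups did not overlap, and the KO mean was 30.0% higher. Cdk6 lay under the minimum of 1 FPKM. With a minimum of 0.3 FPKM, chosen after its values were seen, the log2 difference was 0.33 (95% interval -0.14 to 0.79, limma adjusted p = 0.525 over 15663 loci). Its standard error was 0.20, against 0.05 for Ccnd2. The FPKM of Cdk4 was 116 to 147 times that of Cdk6 in WT and 92.6 to 105 times in KO.

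Cdk2 (XLOC_025928, chromosome 10, 128697938 to 128705051), the partner of cyclin E, had 3.60, 3.39 and 3.76 FPKM in WT and 4.14, 3.44 and 4.96 in KO. The KO libraries were spread more widely than the WT libraries and *Fmr1* KO replicate 3 was the highest. The log2 difference was 0.20 (95% interval -0.09 to 0.50, limma adjusted p = 0.510). It was 0.07 without that library and 0.33 without *Fmr1* KO replicate 2 (limma adjusted p = 0.442).

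**Figure D3:**
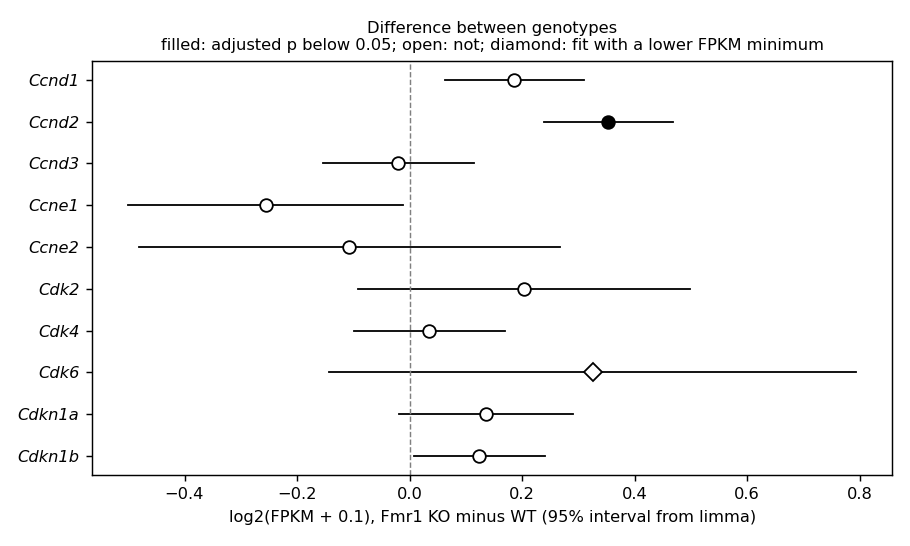
Log2(FPKM + 0.1) in *Fmr1* KO minus WT for each member, with the 95% interval from limma. Ccnd2 at 0.35 is filled, as the only member with an adjusted p below 0.05, and the diamond marks Cdk6, taken from the fit with a minimum of 0.3 FPKM.

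Both Cip/Kip inhibitors had slightly higher FPKM in KO. Cdkn1a (XLOC_037793, chromosome 17, 29090979 to 29100722) encodes p21, a transcriptional target of p53. It had 9.70, 9.73 and 8.60 FPKM in WT and 10.4, 10.4 and 10.02 in KO. The groups did not overlap. The log2 difference was 0.14 (95% interval -0.02 to 0.29, limma adjusted p = 0.396), and 0.08 without WT replicate 3. Cdkn1b (XLOC_014412, chromosome 6, 134920401 to 134925525) encodes p27, which helps to hold differentiated cells out of the cycle. It had 28.8, 28.4 and 29.3 FPKM in WT and 32.5, 29.9 and 32.1 in KO, again without overlap. Its log2 difference was 0.12 (95% interval 0.01 to 0.24, limma unadjusted p = 0.0401, adjusted p = 0.313). The balance of the 2 inhibitors was alike in the genotypes, with Cdkn1b at 75.5 ± 1.55% of their sum in WT and 75.4 ± 1.01% in KO (SD, n = 3). Lockd, a noncoding RNA gene that lies next to Cdkn1b, had 6.23, 5.98 and 5.78 FPKM in WT and 6.63, 6.73 and 6.87 in KO (limma adjusted p = 0.290).

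Exons of 8 of the 10 members overlap exons of another gene on the opposite strand in the GENCODE M21 annotation, the exceptions being Ccne1 and Cdkn1b. Whether the libraries kept strand is not stated, so reads in the shared stretches may belong to either gene. Cdk4 shares 641 bases with Tspan31, which had 41.9 FPKM in WT and 40.1 in KO. Ccne2 shares 609 bases with Ints8, whose FPKM of 9.64 in WT and 9.83 in KO was higher than that of Ccne2. Ccnd1 shares 1100 bases with Oraov1 (named LTO1 in that annotation), which had 6.44 FPKM in WT and 5.37 in KO and so differed in the opposite direction from Ccnd1. Of its 9409 exonic bases, Ccnd2 shares 368 with the antisense gene 9330179D12Rik and 372 with the antisense gene Gm43126. The FPKM of 9330179D12Rik was 0.813 in WT and 1.09 in KO, and that of Gm43126 was not read.

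The other genes of the step from G1 to S phase were read from 8 lists of 108 genes, of which 99 were tested. In limma none had an adjusted p below 0.05, against 0.265% of all tested loci. At an unadjusted p below 0.05, 19 were higher and 2 were lower in KO, against 6.99% and 7.77% of all tested loci. The log2 difference was above 0 in 77 of the 99, against 51.7% of all tested loci, with a median of 0.09. Some genes with copies outside the chromosomes, such as Skp2, Cdc45 and Kif11, are listed at 0 in all libraries, which need not mean that they are silent.

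Of the 5 remaining inhibitors, all had a log2 difference below 0, with a median of -0.15. At an unadjusted p below 0.05, 1 was lower, against 7.77% of all tested loci. This was Cdkn1c, the third Cip/Kip gene (p57), which had 3.16, 3.12 and 3.001 FPKM in WT and 2.02, 2.39 and 1.98 in KO. Its libraries did not overlap, and its log2 difference of -0.52 (standard error 0.11, limma adjusted p = 0.0957) was the largest in size among the pathway genes. Cdkn2a, an INK4 gene, had a log2 difference of -0.39 (standard error 0.46). No test compared the 5 with Cdkn1a and Cdkn1b.

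The pocket proteins and E2F factors, which the G1 kinases act on, lay close to 0. Of 11 tested genes 10 were above 0, with a median log2 difference of 0.08. At an unadjusted p below 0.05, 1 was higher, against 6.99% of all tested loci. Rb1 had a log2 difference of 0.02, E2f1 of -0.08, Rbl1 of 0.22 and E2f6 of 0.17. Of the 14 tested genes that activate or turn over the G1 kinases, 8 were above 0 and the median was 0.04. Their extremes were Cdk7 at 0.12 and Ccnh at 0.07, and Mnat1 at -0.22 and Cks2 at -0.13. Cdk7, Ccnh and Mnat1 together form the kinase that activates the cyclin-dependent kinases.

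The genes that follow the G1 step lay higher as groups, although no single gene passed the test. The lists were chosen with earlier results of these data known, so their shared direction is a description and not separate support. Of the 16 tested E2F target and S phase genes, 15 were above 0, and the median log2 difference was 0.24. At an unadjusted p below 0.05, 7 were higher, against 6.99% of all tested loci. Ccne1 and Ccne2, also E2F targets, were counted among the members and not here, and lay at -0.26 and -0.11. Cdc6, which loads the replicative helicase, had a log2 difference of 0.44 (limma adjusted p = 0.259) at a WT mean of 1.04 FPKM. Tk1 had a log2 difference of 0.37 (standard error 0.28) at a WT mean of 1.31 FPKM, and its groups overlapped. Both lay near the minimum of 1 FPKM. Ccna2, the S phase cyclin that follows cyclin E, had 9.41, 8.83 and 8.95 FPKM in WT and 11.1, 10.7 and 10.7 in KO (limma adjusted p = 0.108). Pcna, the sliding clamp of DNA replication, had a log2 difference of 0.09. All 11 tested mitotic genes were above 0, with a median of 0.27. Of these, 6 were higher at an unadjusted p below 0.05, against 6.99% of all tested loci. The summed FPKM of the S phase list was 88.1 to 96.7 in WT and 103 to 108 in KO, and that of the mitotic list was 53.3 to 59.4 and 62.1 to 70.1. The largest differences among the mitotic genes were Bub1 at 0.43 and Cdc20 at 0.35. Mki67, a marker of cycling cells, had 6.43, 8.05 and 8.42 FPKM in WT and 7.94, 10.3 and 10.4 in KO, so that its groups overlapped (limma adjusted p = 0.308). Genes within these groups rise and fall together in cycling cells and are not independent.

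Cyclins and kinases outside the G1 step showed smaller differences. Of 15 tested other cyclins 13 were above 0 with a median log2 difference of 0.10, from Ccng2 at -0.12 and Ccnk at -0.07 to Ccnj and Ccng1, both at 0.18. Of 13 tested other cyclin-dependent kinases 9 were above 0 with a median of 0.03, from Cdk11b at -0.07 and Cdk18 at -0.06 to Cdk16 at 0.15 and Cdk19 at 0.18. Cdk5, the kinase of neurons that does not drive the cell cycle, was at 0.10. Among p53 and its targets, the list closest to Cdkn1a, 11 of 14 were above 0 with a median of 0.07. Of the 14, 2 were higher at an unadjusted p below 0.05, against 6.99% of all tested loci. Both are p53 targets, Eda2r at 0.36 and Trp53inp1 at 0.27, the latter a neighbour of Ccne2. Trp53 was at 0.07, Phlda3 at -0.06 and Sesn2 at -0.03. Bax, Mdm2 and Zmat3, well known p53 targets, were at 0.08, 0.09 and 0.03.

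**Figure D4:**
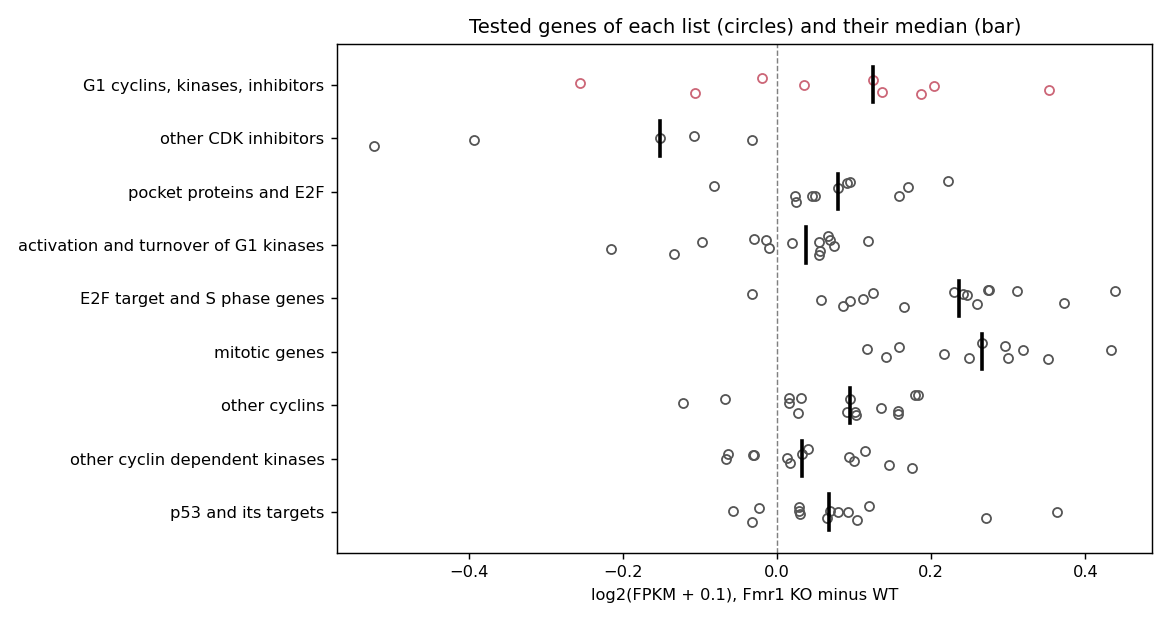
Log2(FPKM + 0.1) in *Fmr1* KO minus WT for every tested gene of the group (red) and of the 8 pathway lists (grey), with the median of each list as a bar and vertical jitter only for legibility. The medians of the S phase and mitotic lists are 0.24 and 0.27, and that of the other inhibitors is -0.15.

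The cultures were labelled as hippocampal neurons and held RNA of several cell types, whose markers were read from 7 lists. The 12 neuron markers summed to 2160 to 2232 FPKM in WT and 2243 to 2341 in KO, and the 8 astrocyte markers to 1706 to 2014 and 1768 to 1965. The 8 markers of the oligodendrocyte lineage summed to 346 to 402 and 396 to 439. The 7 neural progenitor markers, several of which astrocytes also express, summed to 729 to 843 in WT and 931 to 972 in KO. Fabp7 carried most of this gap, with 533 to 628 FPKM in WT and 731 to 763 in KO (limma adjusted p = 0.0685), and Nes had a log2 difference of 0.37. Of the 7, 5 had a log2 difference above 0, with a median of 0.03, and Vim at -0.04 and Hes5 at -0.20 were below 0. Of the 7 tested markers of the oligodendrocyte lineage 5 were above 0 and 2 below, with log2 differences from -0.19 to 0.29. Pdgfra and Olig2, which mark oligodendrocyte precursors, were at 0.29 and 0.25, and Mbp of myelin at -0.06. The summed progenitor, S phase and mitotic lists were higher in each KO library than in any WT library. So were the sums of the neuron markers, the pocket proteins and E2F factors, the other cyclin-dependent kinases and the p53 targets. The sums of the other inhibitors, microglia, endothelial cells, and fibroblasts and mural cells were lower in each KO library, and the remaining lists overlapped. A sum follows its most abundant genes, and how often sums of other lists would be separate was not determined. Of the 12 neuron markers only 6 were above 0, with a median log2 difference of 0.03, although their sum was separate. The part of these lists in the difference of Ccnd2 was not tested. Among the neuron markers, Map2 had a log2 difference of 0.26 (limma adjusted p = 0.0593), Slc17a6 of 0.16, Snap25 of -0.16 and Syt1 of -0.09. Among the astrocyte markers, Gfap was at 0.14, Slc1a2 at 0.06, S100b at -0.36 and Gja1 at -0.19. Markers of microglia summed to 4.85 to 6.75 FPKM in WT and 1.17 to 2.53 in KO, with C1qb at -2.33 and C1qa at -2.03 and with Aif1 and Tmem119 listed at 0 throughout. Of these 9 markers 3 were tested, and their lowest limma adjusted p was 0.117. Endothelial markers summed to 2.50 to 2.64 FPKM in WT and 1.56 to 2.25 in KO, with Cldn5 listed at 0, and Kdr was their only tested gene (limma adjusted p = 0.997). Markers of fibroblasts and mural cells summed to 47.5 to 52.0 in WT and 38.7 to 46.8 in KO, with Dcn at -0.27, Lum at -0.24 and Rgs5 at 0.06.

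**Figure D5:**
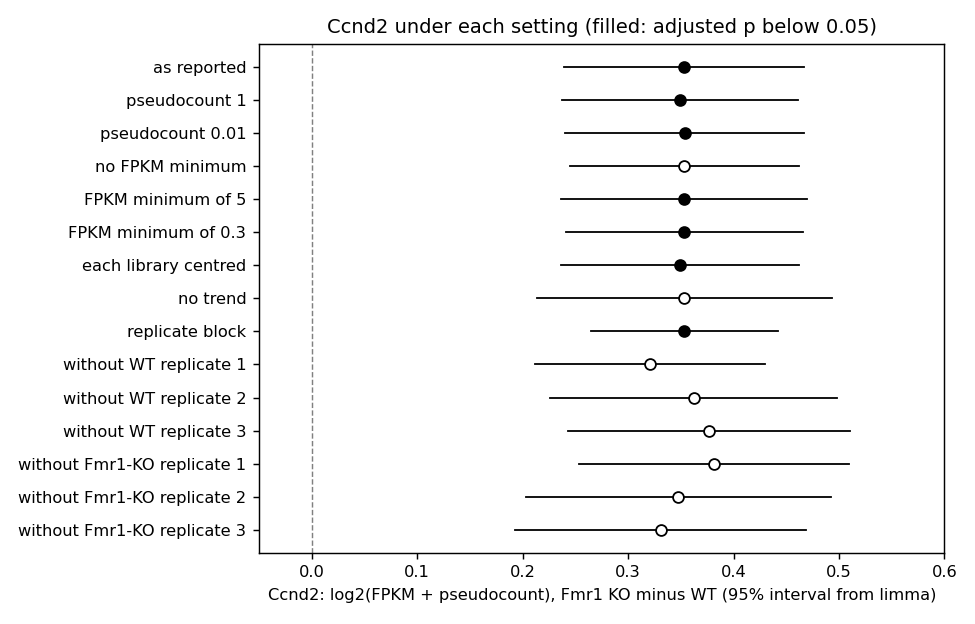
Log2 difference of Ccnd2 (*Fmr1* KO minus WT) with its 95% interval from limma as reported and under 14 other settings, filled where the adjusted p is below 0.05. The estimates lie between 0.32 and 0.38, no interval reaches 0, and the symbols are open for each library left out, without an FPKM minimum and without the trend.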

How the data were processed

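RNA-seq libraries of 3 WT and 3 *Fmr1* KO hippocampal cultures were grouped by their sample labels. By their methods, the authors trimmed and cleaned the reads, aligned them to GRCm38 (TopHat2) and quantified loci with Cufflinks and Cuffdiff. Versions, annotation, strand and library scaling were not given in the sources read. In the deposited table the FPKM of each library were used. Its group means, fold changes and p-values, from a comparison by the authors, were not.

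The table has 48100 rows for 47086 loci, and each locus was tested once. FPKM are not counts, so R 4.3.3 and limma 3.58.1 were run on log2(FPKM + 0.1), with genotype as the only term, a mean-variance trend, two-sided tests and Benjamini-Hochberg adjustment, where either genotype averaged at least 1 FPKM. The procedure was tested on simulated data. Depth is unknown, and the number of libraries limits precision.

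The 10 members and the lists were chosen with earlier results of these data known. Genes were named by a fixed rule: *Fmr1*, the members, the 2 largest rises and falls of each list and any called gene, Mki67, Pcna, Rb1, E2f1, Trp53 and Cdk5, and genes overlapping or adjoining a member. A few genes that this rule names are not reported here. Single genes beyond it (Ccna2, Bax, Mdm2, Zmat3, Skp2, Cdc45, Kif11, and markers listed at 0) were named after their values were seen. Alternatives were pseudocounts of 1 and 0.01, FPKM minimums of 0, 0.3 and 5 (0.3 was added after seeing the data), centred libraries, no trend, each library left out, and the replicate number as a block.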

Additional observations from a re-analysis of the deposited data

How the results depend on the processing

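Of the 9 tested members, 7 kept their direction under each setting that tested them (Ccne2 and Cdk2 were not tested at a minimum of 5 FPKM). With single libraries left out, the log2 difference ranged from -0.044 to 0.025 for Ccnd3 (above 0 without *Fmr1* KO replicate 3) and from -0.024 to 0.067 for Cdk4 (below 0 without WT replicate 2). Neither passed the test in any setting. The 1 member called higher, Ccnd2, became 0 called with no FPKM minimum (adjusted p = 0.112 over 26981 loci) and without the trend (adjusted p = 0.109), and the count was 0 throughout when any library was left out. The adjusted p of Ccnd2 was between 0.0233 and 0.177 over all settings. The member lower at an unadjusted p below 0.05, Ccne1, was 0 with no FPKM minimum and without the trend, and 0 to 1 with single libraries left out (0 without WT replicate 1 or 3 or *Fmr1* KO replicate 2 or 3). The 3 members higher at an unadjusted p below 0.05 were 2 to 4 with single libraries left out. The 2 pathway genes lower at an unadjusted p below 0.05 were 1 with no FPKM minimum, with a minimum of 5 and without the trend, and 1 to 2 with single libraries left out (1 without each of the same 4). No member was called lower, and no pathway gene was called, in any setting. The number of loci called over the whole table was 35, against 15 with no FPKM minimum, 54 with a minimum of 5, 21 without the trend, 65 with the block and 14 to 20 with single libraries left out. The replicate number as a block gave Ccnd2 an adjusted p of 0.0233 and changed no call of a member. Deviations of same-numbered libraries correlated at 0.24, 0.06 and 0.08. Replicate 1 of either genotype correlated at -0.15 to -0.12 with replicates 2 and 3 of the other. Replicates 2 and 3 correlated at 0.06 to 0.08 across the genotypes, whichever number they had. Not every library correlated best with its own number, so the numbers were not taken to pair the libraries. The causes were not tested.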
